A study of Mus musculus with 11 samples.

Results

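The proteasome is described here by the genes of its constitutive subunits: the 20S core particle (Psma1 to Psma7 and Psmb1 to Psmb7) and the 19S regulatory particle (Psmc1 to Psmc6 and Psmd1 to Psmd14). These 34 genes, 14 of the 20S and 20 of the 19S, were chosen by symbol from the 21957 genes of the count table, and all were found. The immunoproteasome subunits Psmb8, Psmb9 and Psmb10 were kept apart. Positions are on GRCm38.

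The cells were primed OT1 cells, CD8 T cells whose transgenic receptor recognises an ovalbumin peptide. They were left unstimulated (T0) or given beads carrying antibodies to CD3 and CD28 for 2 h, and the cells of both groups then received cycloheximide, a translation inhibitor, for 10 min. Each group has 3 RNA libraries. Ribosome footprints, short stretches of mRNA shielded by ribosomes, were sequenced in replicates 1 to 3 of the unstimulated and replicates 2 and 3 of the stimulated group. The comparisons address how mRNA and translation change within 2 h of activation. Age, sex and strain background are not given in the sources used here. Nor do the labels say whether replicates came from separate animals or cultures, so p-values measure only the spread between these samples, which may be technical.

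As background, the proteasome degrades proteins that carry ubiquitin chains. In the 20S barrel, alpha rings gate the entrance and beta rings hold the proteolytic sites. The 19S cap binds ubiquitin, removes it, and unfolds the substrate with a ring of ATPases that threads it into the barrel. Lymphocytes also make immunoproteasomes, in which Psmb8, Psmb9 and Psmb10 replace the catalytic subunits Psmb5, Psmb6 and Psmb7 and alter the peptides available for presentation.

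RNA libraries held 21658263 to 39346699 counts and footprint libraries 11136 to 23641. At these depths a count of 0, which allows up to 3 counts, limits a gene to between 127 and 269 CPM (counts scaled to a common library size) in single footprint libraries. Summed RNA of 7 T cell and CD8 markers was 2292 to 2593 CPM unstimulated and 1653 to 2644 CPM stimulated. All 7 were seen in both footprint groups, and the B cell and NK lists were at 0 in footprints. Markers of B cells, myeloid cells and NK cells summed to at most 8.10, 8.03 and 2.30 CPM in any RNA library. Those of dendritic cells summed to 15.8 to 21.7 CPM unstimulated and 27.4 to 33.5 CPM stimulated, and those of CD4 T cells to 11.8 to 12.2 and 18.9 to 24.8 CPM. The groups did not overlap for either list, and 1 of 3 genes in each was called higher (edgeR), Zbtb46 and Cd40lg. Erythroid markers summed to 4.49 to 4.80 CPM unstimulated and 1.80 to 2.01 CPM stimulated. The 1 erythroid gene tested, Alas2, was called lower (log2 change -1.53, edgeR adjusted p = 0.0257). All 7 T cell and CD8 markers had log2 changes below 0 (median -0.41, none called). Their part in the results was not tested. RNA from stimulated replicates 1 and 2 and unstimulated replicate 2 stood apart. Olfactory, vomeronasal and defensin genes, which are not T cell genes, took 0.189 to 0.276% of their counts against 0.0300 to 0.0686% in the others. In the RNA libraries 4.09 to 14.9% (unstimulated) and 12.9 to 25% (stimulated) of counts fell on 4 genes, Lars2, Gm10800, Gm10801 and Gm20594, so RNA changes are also given on scales that need no library total. In bulk libraries such as these, fewer cells of a type and less RNA per cell cannot be told apart.

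Of the 34 genes, Psmd7 alone was called changed in RNA after 2 h, and it was higher. The 34 genes together took 0.383, 0.326 and 0.379% of the counts in the unstimulated RNA libraries and 0.310, 0.326 and 0.383% in the stimulated ones, in replicate order. The ranges overlap, and replicate 3 of the stimulated group was level with the highest unstimulated library. All 34 passed the filter on low counts, and 1 of them, Psmd7, passed edgeR's quasi-likelihood test (adjusted p under 0.05), against 8.25% of the 18886 genes tested (3.58% higher, 4.67% lower). At an unadjusted p under 0.05 the count was 2. The share of members called, 1 of 34, lies below that background. Without unstimulated replicate 2 the count was 15 (1 higher, 14 lower) against a background of 67.8%. Without stimulated replicate 3 it was 4 (1 higher, 3 lower) against 27.0%. Without any other single library it was 0, against 3.05 to 4.70%. Leaving out the 3 libraries that stood apart leaves 1 stimulated library, so no count is given for that setting.

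On the TMM scale (library totals corrected by a trimmed mean of ratios), the median log2 change, stimulated minus unstimulated, was 0.10 for the 20S and 0.17 for the 19S. The median over all genes tested was 0.39, which is -0.29 for the 20S and -0.22 for the 19S relative to all genes. The sign of the members' own medians depended on the scaling. With RLE size factors they were -0.13 and -0.06, and with plain library totals -0.09 and -0.02. The median of all genes moved too, to 0.19 and 0.22, and the members stayed below it, at -0.32 and -0.25 and at -0.31 and -0.24 in turn. Among the 8725 genes of at least 10 CPM, fitted alone, the medians were 0.19 and 0.26 against 0.00 over all genes. There, 9 of 14 20S and 16 of 20 19S genes were called higher and 1, Psmd13, lower, against a background of 72.9% called, 36.8% higher and 36.1% lower. Whether the family as a whole was above or below other genes therefore depended on which genes it was set against. The RNA levels of single genes in CPM are all on the TMM scale. Stimulated replicate 3 had the lowest TMM factor, 0.83, against 0.968 to 1.075 in the other RNA libraries. A lower factor raises all CPM of a library, so the place of this replicate among the others depends on the scaling.

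**Figure D1:**
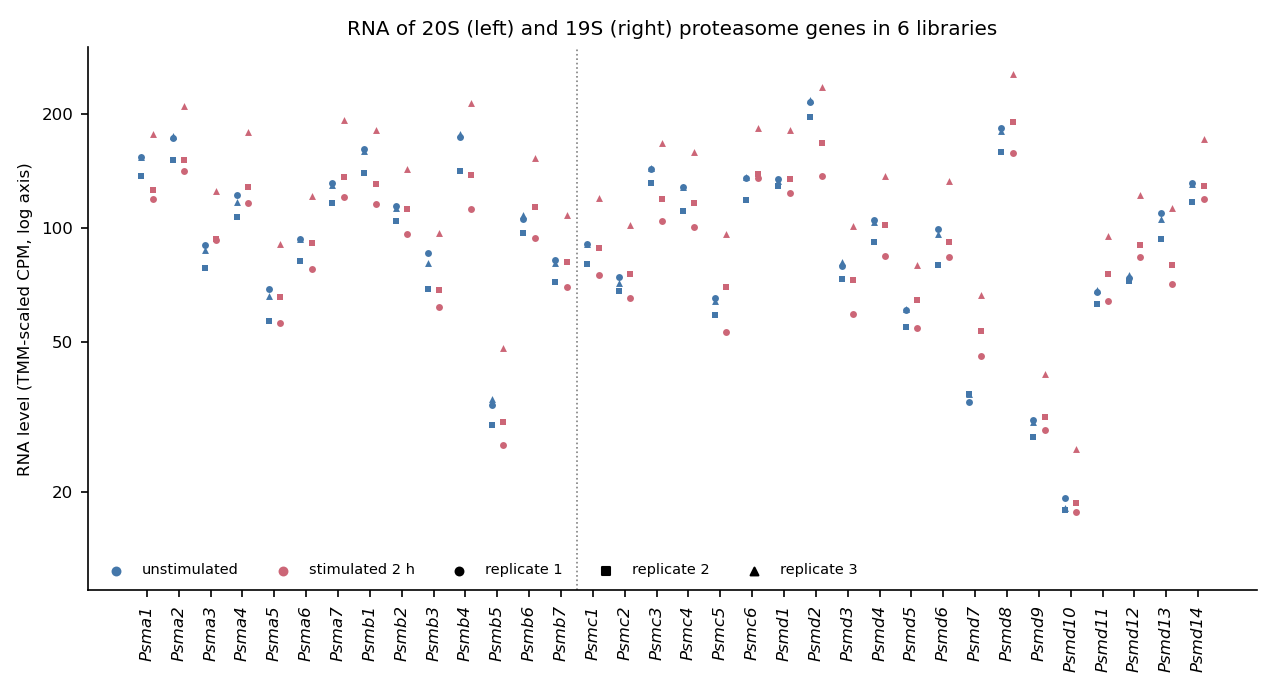
RNA of each 20S gene (left of the dotted line) and 19S gene (right) in TMM-scaled CPM on a log axis, with unstimulated libraries in blue, libraries stimulated for 2 h in red, and the marker shape giving the replicate. For most genes the stimulated points spread around the unstimulated ones, with stimulated replicate 3 highest, and only Psma3, Psmd7 and Psmd12 have groups that do not overlap; levels of different genes are not corrected for length, and under RLE scaling or plain library totals the median changes of both complexes turn negative.

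Psmd7, a subunit of the 19S lid that pairs with the deubiquitinase Psmd14, was the gene that passed (chromosome 8, 107580380 to 107588482). Its RNA was 34.6, 36.3 and 36.4 CPM in the unstimulated libraries and 45.8, 53.3 and 66.4 CPM in the stimulated ones. Every stimulated library lay above every unstimulated one. The means were 35.8 ± 1.05 and 55.2 ± 10.4 CPM (SD, n = 3 each), a log2 change of 0.63 ± 0.17 (SE, edgeR adjusted p = 0.0435). The value was positive under all alternatives run, from 0.32 to 0.73. The call was lost without unstimulated replicate 1 (edgeR adjusted p = 0.273), unstimulated replicate 3 (0.383), stimulated replicate 1 (0.376) or stimulated replicate 2 (0.405), and by DESeq2 (0.324). It was also lost in edgeR with RLE scaling (adjusted p = 0.230), without the 4 genes that dominate RNA libraries (0.130) and with no filter (0.168). Without the 3 libraries that stood apart, which leaves 1 stimulated library and so no p, the log2 change was 0.46.

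Psma3, an alpha ring subunit, and Psmd12, a lid subunit, were the other members without overlap on the TMM scale. These 3 genes, all higher, compare with 29.0% of all genes tested whose groups did not overlap; 15.4% of all genes tested did not overlap and were higher. Psmd12 was at 73.7, 72.2 and 74.7 CPM unstimulated and 83.6, 90.1 and 122 CPM stimulated. Its log2 change of 0.42 ± 0.18 did not pass (edgeR adjusted p = 0.219). For Psma3 the levels were 89.95, 78.4 and 87.4 CPM against 92.5, 93.4 and 125 CPM, with a log2 change of 0.28 ± 0.18 (edgeR adjusted p = 0.345).

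In the alpha ring, which gates the core, Psma4 had the highest log2 change of the 20S genes, 0.29 ± 0.20 (edgeR adjusted p = 0.361). Its RNA was 122, 107 and 117 CPM unstimulated and 116, 128 and 179 CPM stimulated, so that the groups overlap. Psma7, the alpha subunit with most footprints, was at 131, 116 and 130 CPM and at 120, 136 and 193 CPM, again overlapping. Apart from Psma3, described above, the other alpha genes had log2 changes from -0.08 for Psma1 to 0.15 for Psma5, with no pass.

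In the beta ring, Psmb1, a structural subunit, had the lowest log2 change of the 20S, -0.10 ± 0.20 (edgeR adjusted p = 0.714). It stood at 161, 139 and 159 CPM unstimulated and 116, 131 and 181 CPM stimulated. On the TMM scale stimulated replicate 3 exceeded every unstimulated library and stimulated replicates 1 and 2 lay below them all. Psmb4, a structural beta subunit that carried the most footprints of the family, was at 174, 141 and 177 CPM against 112, 138 and 213 CPM.

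The catalytic subunits kept overlapping levels. Psmb5, the chymotrypsin-like site, was at 33.9, 30.2 and 35.3 CPM unstimulated and 26.6, 30.6 and 48.1 CPM stimulated. Psmb6, the caspase-like site, was at 105, 96.9 and 108 CPM and at 94.1, 113 and 152 CPM. Psmb7, the trypsin-like site, was at 82.3, 71.7 and 80.4 CPM and at 69.7, 81.4 and 108 CPM. In each, on the TMM scale, stimulated replicate 1 was the lowest of the 6 libraries and stimulated replicate 3 the highest. The log2 changes were 0.08 for Psmb5, 0.21 for Psmb6 and 0.15 for Psmb7 (edgeR adjusted p = 0.777, 0.459 and 0.583). The RefSeq table names 6 pseudogenes for 4 members, Psma5, Psmb5, Psmb6 and Psmb7, and the values of these 4 are uncertain if reads were shared with those copies.

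Among the 19S genes, the 6 ATPases that unfold substrates had log2 changes from -0.10 (Psmc3) to 0.23 (Psmc6), none past the test. Psmc3 was at 142, 131 and 144 CPM unstimulated and 104, 119 and 167 CPM stimulated, overlapping. Psmd2, the base scaffold that docks ubiquitin shuttles, had 214, 196 and 218 CPM against 137, 167 and 236 CPM, a log2 change of -0.22 ± 0.22 (edgeR adjusted p = 0.479). Psmd13, a lid subunit, had the lowest change of the 19S, -0.23 ± 0.20 (edgeR adjusted p = 0.432), with 109, 93.3 and 106 CPM against 70.8, 79.5 and 113 CPM. On the TMM scale, stimulated replicates 1 and 2 lay below all unstimulated libraries in both genes, and replicate 3 above them. With plain library totals both genes were called lower (edgeR), against a background of 27.7% called in either direction.

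The ubiquitin receptor Psmd4 was at 105, 91.7 and 104 CPM unstimulated and 84.3, 101 and 137 CPM stimulated. Psmd14, the deubiquitinase that clips chains from substrates, was at 131, 117 and 130 CPM and at 119, 129 and 171 CPM. Psmd8, a lid subunit, was at 184, 159 and 180 CPM and at 158, 190.1 and 255 CPM. The groups overlap in all of them, with log2 changes of 0.10, 0.15 and 0.21 in turn.

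Psmd5, Psmd9 and Psmd10 are chaperones that help assemble the 19S base and are absent from the finished particle. Psmd5 was at 60.5, 54.6 and 60.9 CPM unstimulated and 54.3, 64.2 and 79.6 CPM stimulated. Psmd9 was at 31.1, 28 and 30.7 CPM against 29.2, 31.5 and 41.2 CPM. Psmd10 was at 19.3, 17.95 and 18.2 CPM against 17.7, 18.7 and 26.1 CPM. Their log2 changes were close together, at 0.17, 0.18 and 0.17, with overlapping groups and no pass.

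The subunits were next compared with each other inside each library, as a share of the counts of all 34 genes. Neither the library total nor the scaling enters such a share. By this measure the groups did not overlap for 23 of 34 genes, 14 higher (6 of the 20S, 8 of the 19S) and 9 lower (4 and 5). The background was 41.0% of all genes measured against the same sum, 13.3% higher and 27.7% lower. It spans genes of all levels. Between RNA libraries of a group, spread was 9.7 to 208 times counting error over all genes and 1.1 to 7.2 for members. A background at matched level was not computed. Shares of 1 sum are tied, so that rises force falls. The members' shifts were small: 30 of 34 lay within 0.25 on the log2 scale, all 14 of the 20S among them. A gene without overlap keeps its direction whichever libraries are left out.

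The exceptions beyond 0.25 were all non-ATPase 19S genes. Psmd7 made up 0.969, 1.15 and 1.03% of the family's RNA counts unstimulated and 1.55, 1.58 and 1.44% stimulated, a log2 change in share of 0.54. Psmd12 went from 2.07, 2.29 and 2.11% to 2.83, 2.67 and 2.64% (0.34). Both lid genes were higher in every stimulated library. Psmd2 went from 6.01, 6.20 and 6.14% to 4.61, 4.96 and 5.11% (-0.34). Psmd13 went from 3.07, 2.96 and 2.98% to 2.39, 2.36 and 2.44% (-0.33), lower in every stimulated library. Lid genes thus stood at both ends of the range.

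**Figure D2:**
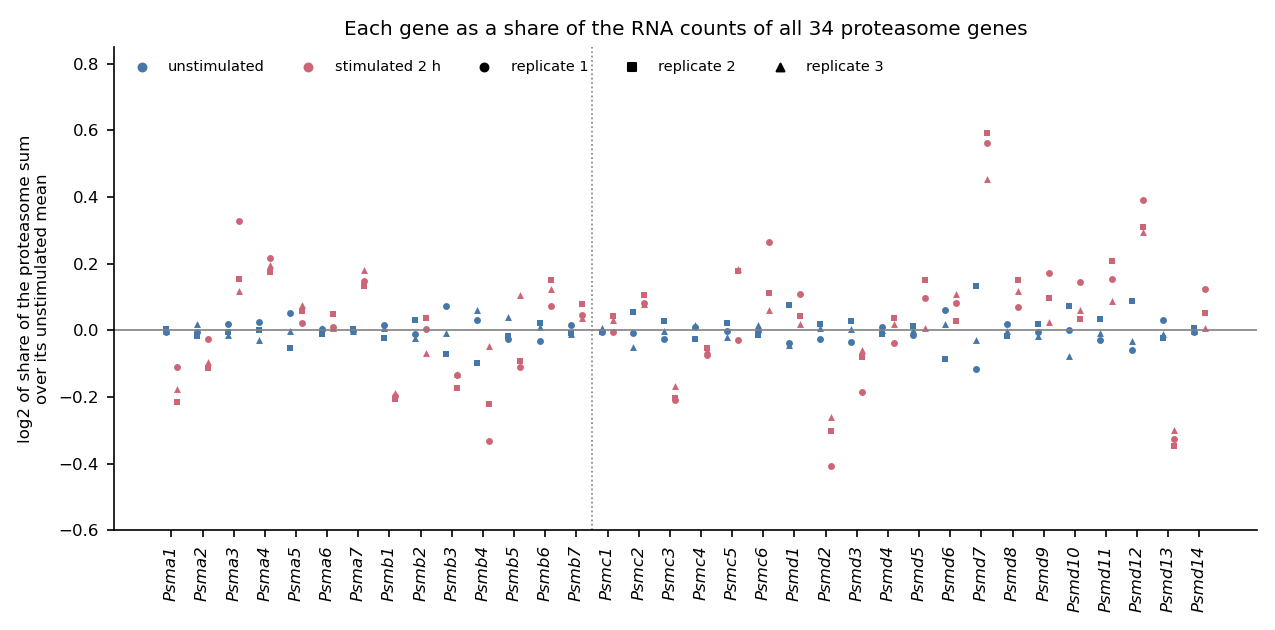
For each gene, the log2 of its share of the RNA counts of all 34 proteasome genes in each library, over the mean of the unstimulated libraries (blue, unstimulated; red, stimulated for 2 h; marker shape, replicate; 20S left and 19S right of the dotted line). Psmd7 (0.54) and Psmd12 (0.34) stand above and Psmd2 (-0.34) and Psmd13 (-0.33) below a family in which 30 of 34 genes lie within 0.25.

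The balance of the complexes moved by less than the spread between libraries. Counts of 20S genes over 19S genes were 0.803, 0.777 and 0.799 in the unstimulated and 0.781, 0.769 and 0.789 in the stimulated RNA libraries. The means, 0.793 ± 0.0140 and 0.780 ± 0.00998 (SD, n = 3 each), gave p = 0.3 in the exact two-sided permutation test, where 0.1 is the smallest p possible, and the groups overlap. In footprints, pooled over libraries, the same ratio was 0.804 (144 over 179 footprints, 95% exact interval 0.641 to 1.01) unstimulated and 0.735 (169 over 230, 0.599 to 0.900) stimulated.

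The immunoproteasome genes had less RNA relative to their constitutive counterparts in every stimulated library. Psmb8 over Psmb5, the pair at the chymotrypsin-like position, was 8.61, 8.22 and 8.30 in unstimulated RNA and 5.62, 5.86 and 5.37 in stimulated RNA. Psmb9 over Psmb6, at the caspase-like position, was 1.16, 1.12 and 1.13 against 0.760, 0.765 and 0.805. Psmb10 over Psmb7, at the trypsin-like position, was 1.13, 1.14 and 1.14 against 0.748, 0.797 and 0.880. All stimulated libraries were below all unstimulated ones, which held, relative to the proteasome sum, for 27.7% of all genes. The level of such a ratio includes the lengths of both genes, but its change does not.

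As means, Psmb8 over Psmb5 went from 8.38 ± 0.202 to 5.62 ± 0.246, Psmb9 over Psmb6 from 1.14 ± 0.0234 to 0.777 ± 0.0248, and Psmb10 over Psmb7 from 1.14 ± 0.00754 to 0.808 ± 0.0664 (SD, n = 3 each). The log2 changes were -0.58, -0.55 and -0.49. The exact two-sided permutation test gave p = 0.1 for each (adjusted over the 3 ratios, 0.1), the smallest p that 3 against 3 libraries allow. Without the 3 RNA libraries that stood apart, which leaves 1 stimulated library and no test, the log2 changes were -0.66, -0.51 and -0.37.

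**Figure D3:**
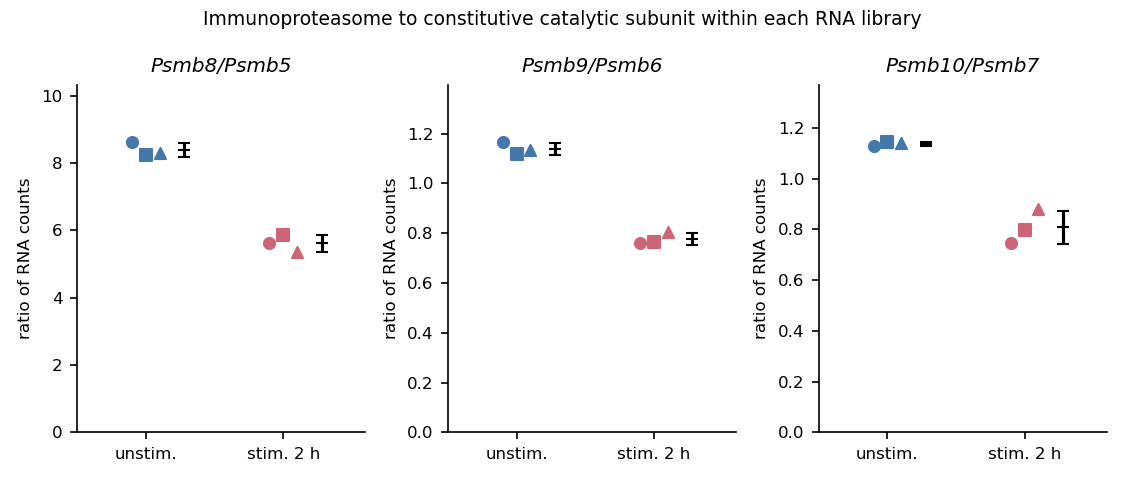
RNA counts of each immunoproteasome subunit over those of the constitutive subunit at the same catalytic position, 1 point per RNA library (blue, unstimulated; red, stimulated for 2 h; marker shape, replicate), with the mean and SD in black. All stimulated libraries lie below all unstimulated ones, with means of 8.38 and 5.62, 1.14 and 0.777, and 1.14 and 0.808.

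As single genes against the whole table, the immunoproteasome subunits did not pass. Psmb8 was at 292, 248 and 293 CPM unstimulated and 149, 179 and 258 CPM stimulated, with a log2 change of -0.51 ± 0.22 (edgeR adjusted p = 0.230). Psmb9 and Psmb10 had log2 changes of -0.33 each (edgeR adjusted p = 0.341 and 0.350). On the TMM scale stimulated replicate 3 reached into or above the unstimulated range in all of them. This depends on the scaling. As percent of library counts, these genes summed with Psmb11 took 0.05457, 0.04541 and 0.0543% unstimulated. In stimulated RNA they took 0.02871, 0.03211 and 0.03955%, without overlap. Among genes of at least 10 CPM fitted alone, Psmb8, Psmb9 and Psmb10 were called lower, as were 36.1% of the genes in that fit. Their log2 changes were -0.42, -0.25 and -0.25 (edgeR adjusted p = 2.0e-04, 0.0025 and 0.00947). In footprints the 3 immunoproteasome genes over the 3 constitutive ones gave 63 over 18, or 3.50 (exact 95% interval 2.05 to 6.28), unstimulated and 60 over 30, or 2.00 (1.27 to 3.21), stimulated. These intervals overlap and cover counting error only. By library the ratios were 9.50, 2.57 and 2.89 unstimulated and 1.45 and 3.10 stimulated, so that the groups overlap. Without stimulated replicate 2 the stimulated value is 3.10, above unstimulated replicates 2 and 3.

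The wider pathway was read from fixed lists, in which the most abundant gene is named by CPM with no correction for length. Proteasome activators and the inhibitor had 0 of 5 past the test in RNA (edgeR, background 8.25%). Psme3, the nuclear activator, had the largest change, from 171, 157 and 168 CPM to 218, 255 and 335 CPM, with no overlap and a log2 change of 0.71 ± 0.20 (edgeR adjusted p = 0.0557). Psme1, a subunit of the interferon-inducible activator and the most abundant of this list, was at 235, 214 and 233 CPM against 223, 253 and 345 CPM (log2 change 0.27, edgeR adjusted p = 0.389). The activators thus showed values on both sides of 0, with Psme4 at -0.14.

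Proteasome assembly chaperones other than the members Psmd5, Psmd9 and Psmd10 had 0 of 5 past the test. Paaf1, also on this list, was not found under that symbol. Their log2 changes ran from 0.07 to 0.51, and Pomp, the maturation factor of the core, was at 86.4 ± 5.03 and 103 ± 26.1 CPM (SD, n = 3 each; log2 change 0.26, edgeR adjusted p = 0.391). Other proteasome-bound proteins had 0 of 9 past the test. The most abundant, Ecpas, a proteasome adaptor, was at 131 ± 2.48 and 149 ± 31.7 CPM (log2 change 0.19, edgeR adjusted p = 0.492).

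Regulators of proteasome genes had 0 of 6 past the test. Nfe2l1, the transcription factor that raises subunit genes when proteasome activity falls short, was at 125, 115 and 121 CPM and at 114, 138 and 180.2 CPM, overlapping. The most abundant of this list, Stat3, a cytokine-activated factor, had a log2 change of 0.59 ± 0.21 (edgeR adjusted p = 0.116). Ubiquitin genes and the E1 enzymes that activate ubiquitin had 0 of 6. Uba1, an E1 enzyme, was most abundant in unstimulated RNA (351 ± 21.3 and 304 ± 77.5 CPM, log2 change -0.21, edgeR adjusted p = 0.490). Rps27a, which encodes ubiquitin fused to a ribosomal protein, was at 322 ± 38.8 and 335 ± 107 CPM and so above Uba1 in stimulated RNA.

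Ubiquitin shuttles and Vcp, the segregase that extracts substrates, had 1 of 9 past the test. Ubqln4, a shuttle that carries ubiquitinated proteins to the proteasome, was at 43.3, 40.1 and 44.4 CPM unstimulated and 57.7, 73.0 and 96.3 CPM stimulated. The groups did not overlap, and the log2 change was 0.83 ± 0.20 (edgeR adjusted p = 0.0240). The call was lost without unstimulated replicate 1 (edgeR adjusted p = 0.0717), unstimulated replicate 3 (0.178), stimulated replicate 1 (0.140) or stimulated replicate 2 (0.275). It was also lost by DESeq2 (adjusted p = 0.152) and, in edgeR, with RLE scaling (0.144), without the 4 genes that dominate RNA libraries (0.0608) and with no filter (0.0875). The log2 change stayed between 0.51 and 0.79 as each library was left out.

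Promoter sequence was available for 28 of the 34 genes in the RefSeq table (GRCm38.p6), as 250 bases before to 50 after a listed start site. This site can differ from the start of the gene. The core of the antioxidant response element, TGACNNNGC, which NFE2L1 binds, was searched on both strands, as 1 of 12 motifs. It was present in 5 of 28 promoters (17.9%), against 14% of the 27025 genes in the table. The matches are shown because Nfe2l1 is the factor named above for this family. They stand 5′ to 3′ on the strand of the gene, with the motif in capitals. For Psmc6 and Psmd12 the match is on the opposite strand and reads as the reverse complement.
Psmb5: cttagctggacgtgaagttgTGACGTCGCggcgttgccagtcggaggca
Psmb6: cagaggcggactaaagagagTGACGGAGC
Psmd9: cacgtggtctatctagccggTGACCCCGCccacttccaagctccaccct
Psmc6: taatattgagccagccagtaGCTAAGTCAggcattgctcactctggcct
Psmd12: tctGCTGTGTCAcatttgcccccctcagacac

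The Psmb5 window is chr14:54618014-54618062 on the minus strand. The others are on the plus strand, at chr11:70525328-70525356 for Psmb6, chr5:123228139-123228187 for Psmd9, chr14:45329577-45329625 for Psmc6 and chr11:107479278-107479309 for Psmd12. The matches in Psmb5, Psmb6 and Psmd9 begin 47, 9 and 31 bases before the listed start site, and those in Psmc6 and Psmd12 lie farther out, at 227 and 247 bases. The gene coordinates place the start of Psmb6 at chr11:70525324, before its window, so by that start its match lies inside the gene. Of these genes Psmd12 had a log2 change in RNA of 0.42, Psmb6 of 0.21, Psmc6 of 0.23, Psmd9 of 0.18 and Psmb5 of 0.08, and none passed. Of the other motifs, CCGGAAG, an ETS factor motif, was in 10 of 28 members (35.7%) against 9.93% of genes, and GGGCGG, a GC box, in 18 of 28 (64.3%) against 38.2%. These last were singled out after their values were seen, and a match is a description of letters in this window only.

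Footprints of the family numbered 722 over 5 libraries. The unstimulated libraries held 79, 108 and 136 and the stimulated ones 205 and 194. As shares of library counts these were 0.709, 0.741 and 0.893% against 0.983 and 0.821%, and the groups overlap. The 20S held 43, 44 and 57 footprints and then 94 and 75, and the 19S held 36, 64 and 79 and then 111 and 119. Mean shares of all library counts went from 0.354 to 0.384% for the 20S and from 0.427 to 0.518% for the 19S. As TMM-scaled sums the log2 change was 0.02 for the 20S and 0.21 for the 19S. That scale counts as library size only the genes that passed the footprint filter, 256 with all libraries. For the 20S this log2 change ran from -0.14 to 0.29 as each library was left out, for the 19S from 0.04 to 0.27. Without Psmd4 it was 0.08 for the 19S.

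In RNA, the 20S took 0.171, 0.143 and 0.168% of library counts unstimulated and 0.136, 0.142 and 0.169% stimulated. The 19S took 0.213, 0.183 and 0.211% and then 0.174, 0.184 and 0.214%. The share of footprints over the share of RNA was 2.18 for the family unstimulated and 2.64 stimulated. Counted without the 4 genes that dominate RNA libraries, it was 2.01 and 2.11.

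**Figure D4:**
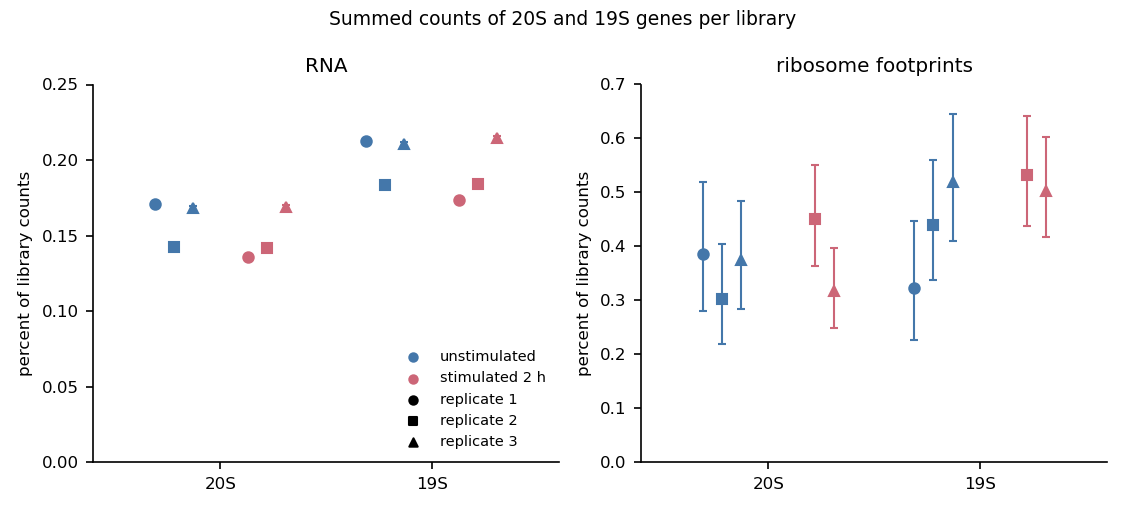
Summed counts of 20S and 19S genes as percent of library counts in RNA (left) and ribosome footprints (right), 1 point per library (blue, unstimulated; red, stimulated for 2 h; marker shape, replicate) with exact 95% binomial intervals, which cover counting error only. Stimulated and unstimulated libraries overlap in RNA for both complexes and in footprints, where the 20S held 43 to 57 and 75 to 94 footprints per library and the 19S 36 to 79 and 111 to 119.

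Few subunits had enough footprints to be tested one by one. Psmb2 and Psmb4, both structural beta subunits, were the only members that passed the filter, among 256 genes, of which 9.38% were called (5.47% higher, 3.91% lower). Psmb2 had 8, 5 and 10 footprints unstimulated and 7 and 7 stimulated, a log2 change of -0.91 (edgeR adjusted p = 0.600). Psmb4 had 10, 11 and 9 and then 18 and 19, a log2 change of 0.09 (edgeR adjusted p = 0.958). The stimulated libraries are deeper, and on the TMM scale neither change passed. The count of members called was 0 by edgeR, with 0 at an unadjusted p under 0.05, and 0 by DESeq2 and limma voom. Of all genes tested in footprints, DESeq2 called 0.103% and limma voom 8.98%.

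Translational efficiency, the footprint change beyond the RNA change, was tested for the same pair among 255 genes, of which 3.14% were called (1.57% higher, 1.57% lower). The log2 changes were -1.07 for Psmb2 (edgeR adjusted p = 0.219) and 0.13 for Psmb4 (0.895). Again 0 members were called by edgeR (1 at an unadjusted p under 0.05), DESeq2 and limma voom. Of all genes tested, DESeq2 called 0.113% and limma voom 0%, so a count of 0 members says little there. With no filter, 32 members had a value and 0 passed. The background was then 0.103% of 10647 genes in footprints and 0.0376% of 10636 in efficiency. The smallest unadjusted footprint p was that of Psmd4, the ubiquitin receptor, with 2, 5 and 5 footprints unstimulated and 21 and 12 stimulated. This is 293 CPM pooled (95% exact interval 151 to 512) against 742 CPM (511 to 1042), a log2 change of 1.56 ± 0.72 (edgeR p = 0.0291, adjusted p = 0.763). Both stimulated counts exceed all unstimulated ones, but the stimulated libraries are deeper. Psmd4 was picked as the smallest of 32 footprint p-values, of which 1 was under 0.05 unadjusted. The share of all genes with such counts was not computed, so no change in Psmd4 translation is claimed.

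Subunits of one particle differed in how many footprints, pooled over libraries, they had for their RNA. For each gene the footprints expected were its share of the family's RNA counts times the family's footprints, so that gene length and library scaling cancel. Over 5 libraries pooled, the exact 95% Poisson interval of observed over expected lay above 1 for 8 members, below 1 for 9, and included 1 for 17. The intervals cover counting error only and are not adjusted for the 34 members. Between footprint libraries of a group, the spread over all genes compared was 1.81 to 2.25 times counting error (chi-square over degrees of freedom). For the 6 members compared in the stimulated pair it was 0.778. The intervals may therefore be too narrow. Those that end close to 1, such as Psmd1 (upper end 0.999), Psmc4 (0.983) and Psmd3 (lower end 1.03), may then include 1. The share of all genes with such intervals beyond 1 was not computed, so these counts cannot be called particular to the proteasome. With the expectation taken without the 3 RNA libraries that stood apart, 33 of 34 members stayed on the same side, and the interval of Psmd1 came to include 1 (0.649, 0.385 to 1.03).

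On the high side, Psmd7 had 25 footprints against 9.46 expected (2.64, interval 1.71 to 3.90), with counts of 1, 4 and 6 and then 6 and 8. Psmd4 had 45 against 21.2 (2.13, 1.55 to 2.84). Psmb4 had 67 against 32.1 (2.09, 1.62 to 2.65). Psmd7, Psmb4, Psmb2 and Psma7 were above expectation in each of the 5 libraries. The others with intervals above 1 were Psmd13 (1.82), Psmc2, an ATPase (1.74), Psmb2 (1.59), Psmd3, a lid scaffold (1.59), and Psmc3 (1.54). Psmc3 had 4, 12 and 4 footprints and then 12 and 10. By condition, unstimulated and then stimulated, the ratio was 3.25 and 2.31 for Psmd7, 1.27 and 2.82 for Psmd4, 1.95 and 2.22 for Psmb4, 2.20 and 1.09 for Psmb2, 2.06 and 1.57 for Psmd13, and 1.04 and 2.27 for Psmc2. The order of the pooled ratios is therefore not that of each condition, and these differences between conditions were not tested.

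On the low side, Psmd2 had 5 footprints in all, 0, 1 and 1 and then 1 and 2, against 39.3 expected (0.127, interval 0.0413 to 0.297). Psma5 had 0 against 13.7 expected, which allows a ratio of up to 0.219, and Psmd10 had 0 against 4.03, which allows up to 0.744. Psmb3, a structural beta subunit, had 3 against 15.7 (0.192), and Psma3 had 5 against 19.5 (0.257). Psma4 (0.418), Psma2 (0.589), Psmc4, an ATPase (0.596), and Psmd1, the large scaffold of the base (0.632), completed the group. Psmd1 was at 0.963 unstimulated (12 against 12.5) and 0.375 stimulated (6 against 16), so its pooled value rests on the stimulated libraries. Of these, Psmd2, Psma5, Psmd10, Psmb3, Psma4 and Psma2 were below expectation in all 5 libraries. How reads with several matching positions were counted is not given in the sources used here.

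**Figure D5:**
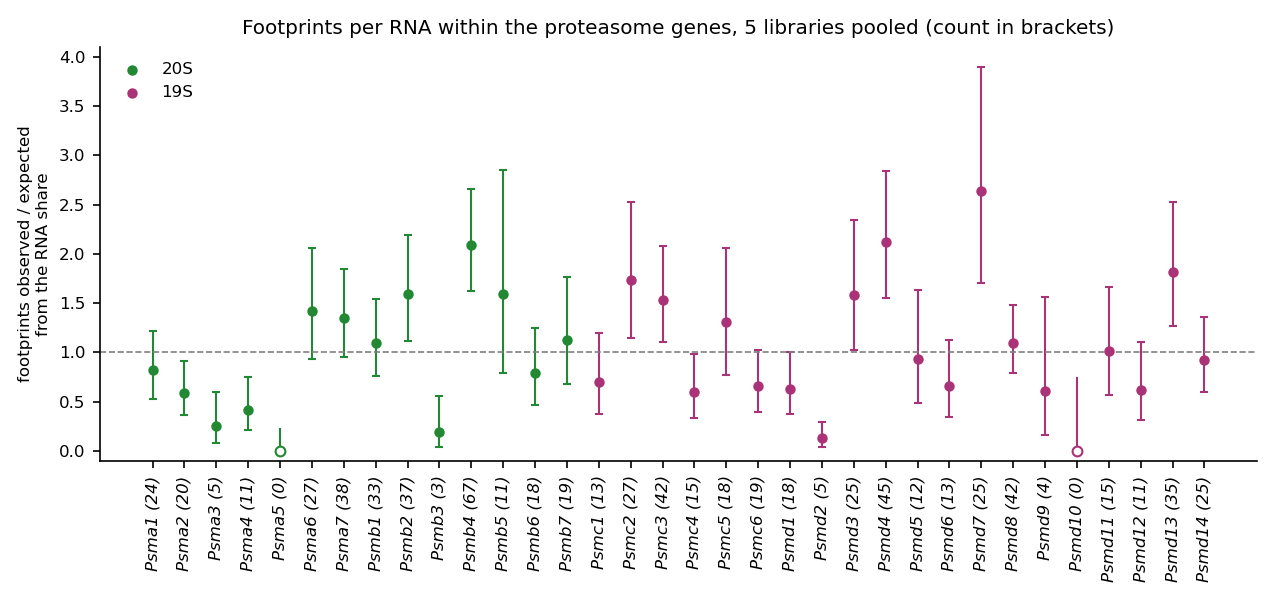
Footprints observed over those expected from each gene's share of the family's RNA, 5 footprint libraries pooled, with exact 95% Poisson intervals for counting error (green, 20S; purple, 19S; open circles, no footprint, with the bound from 3 counts; footprint counts in brackets). In these pooled values Psmd7 (2.64), Psmd4 (2.13) and Psmb4 (2.09) lie highest and Psmd2 (0.127), Psma5 and Psmd10 (0 footprints) lowest around the dashed line at 1.

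The catalytic subunits did not stand out by this measure. Psmb5 had 0, 2 and 3 and then 5 and 1 footprints, Psmb6 had 2, 3 and 3 and then 4 and 6, and Psmb7 had 0, 2 and 3 and then 11 and 3. The ratios to expectation were 1.59, 0.788 and 1.13, each with an interval that includes 1. The same held for Psma7 (38 footprints, 1.35), Psmd8 (42, 1.10), Psmd14 (25, 0.918), and the chaperones Psmd5 (12, 0.937) and Psmd9 (4, 0.609).

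By ring, the alpha subunits had 125 footprints against 170.1 expected (0.735, interval 0.612 to 0.876), and 0.800 (0.665 to 0.953) without Psma5. The beta subunits had 188 against 147.6 (1.27, 1.10 to 1.47). Without Psmb4 the beta value was 1.05 (0.869 to 1.25), so that the excess rested on that gene. The ATPases stood at 1.04 (0.867 to 1.23) and the non-ATPase subunits at 1 (0.886 to 1.13). Summed over its genes, the alpha ring was below expectation in both conditions, with 54 against 74.9 unstimulated and 71 against 95.2 stimulated. Its genes differed: Psma6 (1.42) and Psma7 (1.35) were above 1, with intervals that include 1. Psma1 (0.818, interval including 1), Psma2, Psma3, Psma4 and Psma5 were below it.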

How the data were processed

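The files deposited hold whole-number read counts for coding sequences, 1 value per gene and library, without normalization. The authors aligned reads with STAR 2.5 to mm10 (GRCm38), per the submitters' processing notes. The counting tool, the annotation, the use of strand and read filters are not given in the sources used here. RefSeq gene tables named 21838 of 21957 identifiers and left 119 without a symbol.

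Counts were fitted over the whole table with edgeR 4.0.16 (quasi-likelihood F test, TMM, minimum count 10 and minimum total 15) in R 4.3.3, with Benjamini-Hochberg adjustment at 0.05, two-sided. Library sizes in these fits were the summed counts of the genes that passed the filter. Efficiency was the interaction of assay and stimulation over all 11 libraries. Scripts were tested on simulated data. Members, gene lists and tests were chosen with earlier results of these data known. Values in every library were given, by rule, for members that passed, the most raised and lowered and those with most footprints in each complex (Psmc3 and Psmd8 tied), the catalytic subunits, the assembly chaperones, Psmd2, Psmd4 and Psmd14, and for list genes that passed or were most abundant. Psma3, Psmd12, Psme3, Nfe2l1 and the shares beyond 0.25 were named after their values were seen. Other settings tried were DESeq2 1.42.0, limma 3.58.1 voom, RLE scaling, library totals, no filter, stricter filters, a threshold of 0.01, removal of 4 genes, replicate blocks and each library left out.

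Within a group no libraries were duplicates. Whether replicate numbers pair the RNA libraries could not be told. Deviations of same-numbered samples correlated at -0.82, 0.66 and 0.84, and those of differently numbered samples from -0.91 to 0.87.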

Additional observations from a re-analysis of the deposited data

How the results depend on the processing

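The RNA count of members called, 1, was 0 by DESeq2, with RLE scaling, without 4 genes, with no filter and at an adjusted p of 0.01. The background shares there were 13.2, 8.99, 8.83, 6.61 and 3.33% in turn. The count was 3 with library totals (1 higher, Psmd2 and Psmd13 lower), 9 with a filter at a mean of 50 counts and 26 among genes of at least 10 CPM. The matching background shares were 27.7, 39.1 and 72.9%. The 3 RNA libraries with most background were chosen after seeing the data. Without them 1 stimulated library remains, so only effect sizes are given. The median log2 change was then -0.05 for the 20S and -0.02 for the 19S. Leaving out each RNA library gave 0 to 15. The count was 15 without unstimulated replicate 2 (1 higher, 14 lower, background 67.8%) and 4 without stimulated replicate 3 (27.0%). It was 0 without each of the others (3.05 to 4.70%). The cause was not tested. Footprint and efficiency counts were 0 under every alternative run. The share of all genes called was as low as 0.103% in footprints and 0% in efficiency, so a count of 0 members was then near the background. The RNA medians ran from -0.22 to 0.08 (20S) and -0.14 to 0.16 (19S), and the RNA sums from -0.26 to 0.07 and -0.22 to 0.09, as each library was left out.

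With the replicate number as a block, a pairing that the labels do not state, 1 member was called in RNA (Psmd7, log2 change 0.61, edgeR adjusted p = 0.0313) and 0 in footprints and efficiency. Over all genes the block raised the RNA count from 1559 to 2395.

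The filter at a mean of 50 counts could not be fitted for footprints and efficiency. Density per coding length was not run, since coding lengths were not used here, so levels of different genes were not compared. With 722 family footprints, changes of single subunits in translation were mostly not detectable at this depth.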
